A study of Mus musculus with 6 samples.

Results

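The nuclear genes of oxidative phosphorylation were measured in injured spinal motor neurons whose axons had regrown to a distal site of the sciatic nerve first, and in injured motor neurons not marked from that site. Members were the rows of the count table whose symbols name structural subunits of respiratory complexes I to IV (*Ndufa*, *Ndufb*, *Ndufc*, *Ndufs*, *Ndufv*, *Sdh*, *Uqcr*, *Cyc1* and nuclear *Cox* families), cytochrome c (*Cycs*) or the ATP synthase, complex V (*Atp5* family). This gave 88 of 53858 rows, of which 35 belong to complex I, 4 to complex II, 11 to complex III, 1 to cytochrome c, 19 to complex IV (*Ndufa4* included) and 18 to complex V. All 6 libraries came from wild-type mice with a crushed sciatic nerve, and the cells were taken at day 6. In the 3 DiO+/DiI+ pools the motor neurons carried the green dye DiO, placed proximally at operation (day 0), together with the red dye DiI, placed distally at day 2. In the 3 DiO+/DiI- pools the motor neurons carried DiO without DiI. Each library is a pool of 10 to 15 picked fluorescent cells, amplified over 20 PCR cycles. Whether different animals gave the pools is not stated in the labels. All p-values therefore rest on the variation among these 6 samples, part of which may be technical.

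The respiratory chain passes electrons from NADH through complex I and from succinate through complex II to ubiquinone, then through complex III and cytochrome c to complex IV, which reduces oxygen. The proton gradient so built drives ATP synthesis by complex V. Complexes I, III, IV and V are mosaics of subunits encoded in the nucleus and in mitochondrial DNA, complex II is wholly nuclear, and motor neurons with long axons have a high demand for the ATP that the system makes. Around the catalytic core subunits sit many small supernumerary subunits, which take part in assembly and stability.

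Between the groups no member passed the test. Of 77 members with enough counts to be tested, 35 had a higher mean level and 42 a lower one in DiO+/DiI+ than in DiO+/DiI- pools, and the median log2 fold change was -0.01. The clearest structure among these genes lay between libraries within each group. Genes of small accessory subunits stood several-fold higher in some pools than in others of the same group, in a pattern repeated across complexes I, III, IV and V, while most genes of large core subunits did not follow it. In the ATP synthase, *Atp5d*, *Atp5b* and *Atp5g2* were lower and the complex I core gene *Ndufs1* was higher in every DiO+/DiI+ pool than in every DiO+/DiI- pool, without passing the test. Of all genes tested, 7.07% were lower and 5.86% higher in this way, larger shares than among the 77 members.

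Total counts were 2997714 to 6563403 in DiO+/DiI+ pools and 3747145 to 6505086 in DiO+/DiI- pools, so that 3 counts correspond to 0.457 to 1.00 CPM (counts relative to library size). The pools numbered 2 were the shallowest of both groups. Genes with at least 1 count numbered 15657 to 16467 in DiO+/DiI+ pools and 17229 to 22118 in DiO+/DiI- pools (p = 0.1 by a two-sided exact permutation test, the lowest value possible with 3 against 3). All 7 motor neuron markers had counts in every library. The 10 oligodendrocyte markers all had a log2 fold change above 0 (8 of them with groups that did not overlap), and summed to 1325 to 5608 CPM in DiO+/DiI+ pools against 229 to 629 CPM in DiO+/DiI- pools. Of 8 tested astrocyte markers 6 were above 0, and for 4 of them (*Slc1a2*, *Aqp4*, *Fgfr3* and *Gja1*, at log2 fold changes of 2.45 to 3.51) the groups did not overlap. The median log2 fold change was 2.22 for astrocyte and 2.23 for oligodendrocyte markers. All 9 astrocyte markers together, *Aldoc* and *S100b* included, summed to 955 to 2187 CPM in DiO+/DiI+ pools and 963 to 1075 CPM in DiO+/DiI- pools. The sums of microglial, vascular and interneuron markers were at most 74.8, 33.9 and 128 CPM in any library. The part of these transcripts in the levels below was not tested. In pools of cells, fewer cells of a type and less RNA per cell cannot be told apart.

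The members together took 1.83%, 1.63% and 1.09% of all counts in DiO+/DiI+ pools 1, 2 and 3, and 1.52%, 1.81% and 1.27% in DiO+/DiI- pools 1, 2 and 3. The ranges of the groups overlapped, and the pool numbered 3 was the lowest in both. The group means were 1.52% ± 0.383 in DiO+/DiI+ and 1.53% ± 0.270 in DiO+/DiI- pools (SD, n = 3 each). With mitochondrially encoded transcripts left out of the total, the shares were 1.91%, 1.99% and 1.16% in DiO+/DiI+ pools and 1.58%, 2.03% and 1.34% in DiO+/DiI- pools. The pools numbered 2 then held the highest share of their groups.

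**Figure D1:**
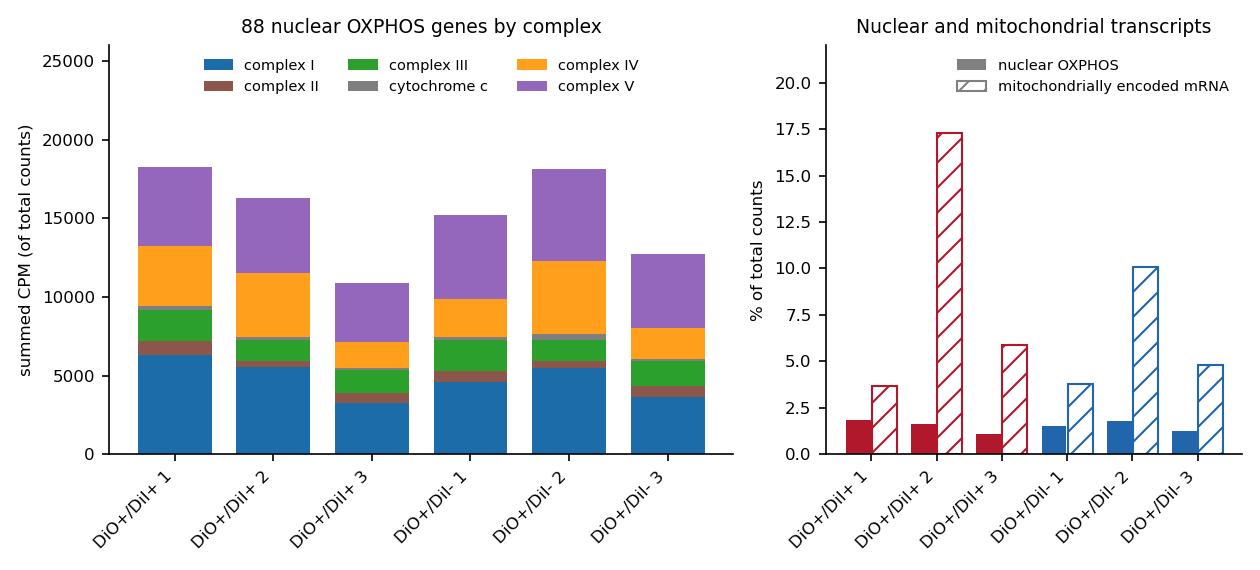
Left, summed CPM of the 88 members in each library, stacked by complex. Right, percent of total counts from the members (filled bars) and from mitochondrially encoded mRNA (hatched bars). Summed levels ran from 10875 to 18295 CPM in DiO+/DiI+ pools and from 12740 to 18149 CPM in DiO+/DiI- pools, and mitochondrially encoded mRNA was highest in the pools numbered 2.

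By complex, genes of complex I summed to 6330.4, 5542 and 3291 CPM in DiO+/DiI+ pools 1 to 3 and to 4576, 5513 and 3643 CPM in DiO+/DiI- pools 1 to 3. Complex IV genes ran lower in both pools numbered 3, at 1659 CPM in the DiO+/DiI+ and 1984 CPM in the DiO+/DiI- group, with 2419 to 4651 CPM in the other 4 libraries. Complex V averaged 4528 ± 719 CPM in DiO+/DiI+ and 5302 ± 593 CPM in DiO+/DiI- pools (SD, n = 3 each), with overlapping ranges. Complex II genes, at 619 ± 214 CPM in DiO+/DiI+ and 627 ± 165 CPM in DiO+/DiI- pools, had their lowest sums in the pools numbered 2, the reverse of complex IV, whose sums were highest there. Complex III sums were also lowest in both pools numbered 2 (1285 CPM in the DiO+/DiI+ and 1288 CPM in the DiO+/DiI- group). Gene by gene complex III differed from complex II, since 5 of its 9 tested genes were highest in pool 2 of each group.

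Transcripts encoded in mitochondrial DNA supply membrane subunits of complexes I, III, IV and V. They made up 3.67%, 17.3% and 5.89% of counts in DiO+/DiI+ pools 1 to 3 and 3.79%, 10.1% and 4.79% in DiO+/DiI- pools 1 to 3. There were 2.01, 10.6 and 5.42 such counts for each nuclear member count in DiO+/DiI+ pools, against 2.49, 5.54 and 3.76 in DiO+/DiI- pools. These ratios rest chiefly on *mt-Cytb* (13644 to 93785 CPM over the libraries) and *mt-Nd1* (7529 to 43112 CPM), while *mt-Co3* had 24.0 to 1284 CPM. They do not measure the balance of subunits. Both pools numbered 2 stood above the other pools of their group. Of 11 mitochondrially encoded genes tested, 7 had a log2 fold change above 0, their median was 0.35 and none passed the test, with groups that overlapped for each of them.

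Compared per kilobase of transcript, the most abundant member was *Cox4i1*, the largest nuclear subunit of complex IV, with a mean of 1459 CPM per kilobase in DiO+/DiI+ and 1331 in DiO+/DiI- pools. *Ndufa4*, now counted as a complex IV subunit, followed with 928 and *Atp5g1*, which encodes the c subunit of the rotor ring, with 722 CPM per kilobase in DiO+/DiI+ pools, and the values in DiO+/DiI- pools were 781 and 616. In DiO+/DiI- pools *Atp5d* ranked second with 996 CPM per kilobase, and it had 588 in DiO+/DiI+ pools. The lowest mean of the tested members in DiO+/DiI+ pools was that of *Sdhc*, a membrane anchor of complex II, with 17.6 CPM per kilobase, against 21.4 in DiO+/DiI- pools. In DiO+/DiI- pools it was that of *Ndufb9*, a supernumerary subunit of complex I, with 22.4 CPM per kilobase in DiO+/DiI+ and 19.4 in DiO+/DiI- pools. Annotated transcript lengths were used, and a transcript that is shorter in these cells would have a higher level than given.

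Several subunits of complex IV exist as alternative isoforms, of which one form is broadly expressed and the other belongs to muscle, testis or lung. In these motor neurons the broad forms carried the counts. *Cox4i1* had 1459, 1259 and 544 CPM in DiO+/DiI+ pools and 842, 1545 and 588 CPM in DiO+/DiI- pools, while *Cox4i2* had 0 counts in every library. *Cox6a1*, *Cox6b1*, *Cox7a2*, *Cox7b* and *Cox8a* had 50.4 to 419 CPM in DiO+/DiI+ and 50.7 to 549.5 CPM in DiO+/DiI- pools. Over all 6 libraries together the other forms had 4 counts (*Cox6a2*), 3 (*Cox6b2*), 21 (*Cox7a1*), 1 (*Cox7b2*), 3 (*Cox8b*) and 1 (*Cox8c*). These 7 isoform genes, 3 pseudogene rows (*Uqcrh-ps1*, *Uqcrh-ps2* and *Cox6c2*) and a second *Atp5o* identifier without counts make up the 11 members that were not tested.

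By the quasi-likelihood test of edgeR, 0 of 12954 genes passed an adjusted p of 0.05, a background of 0%, and the smallest adjusted p was 0.308 for any gene and 0.743 for a member (*Atp5d*). DESeq2 called 76 of 12954 genes (0.587%) and 0 members. At an unadjusted p under 0.05 there were 2 members, *Ndufb5* on the higher side, where 3.18% of all genes passed, and *Atp5d* on the lower side, where 2.63% passed. The groups did not overlap for 1 member on the higher side (*Ndufs1*), against 5.86% of all genes, and for 3 on the lower side, against 7.07% of all genes. As shares of the 77 members, these counts are smaller than those of all genes. Standard errors of the members' log2 fold changes ran from 0.29 to 0.99.

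The direction was even between the groups and depended on the library and the scaling. Among the members 45.5% had a log2 fold change above 0, as did 51.3% of all genes tested. With libraries scaled to total counts alone, the split was 47 higher and 30 lower in DiO+/DiI+ pools, in place of 35 and 42. Without DiO+/DiI- pool 2, 61 of 77 members were above 0 (52.6% of all genes), and without DiO+/DiI+ pool 2, 18 of 77 were (50.7% of all genes). Without pool 1 of either group 25 were above 0, without DiO+/DiI+ pool 3 it was 63 and without DiO+/DiI- pool 3 it was 13. Complex I had 18 genes above and 17 below 0, complex II 2 and 2, complex III 3 and 6, complex IV 5 and 6, and complex V 7 and 10.

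**Figure D2:**
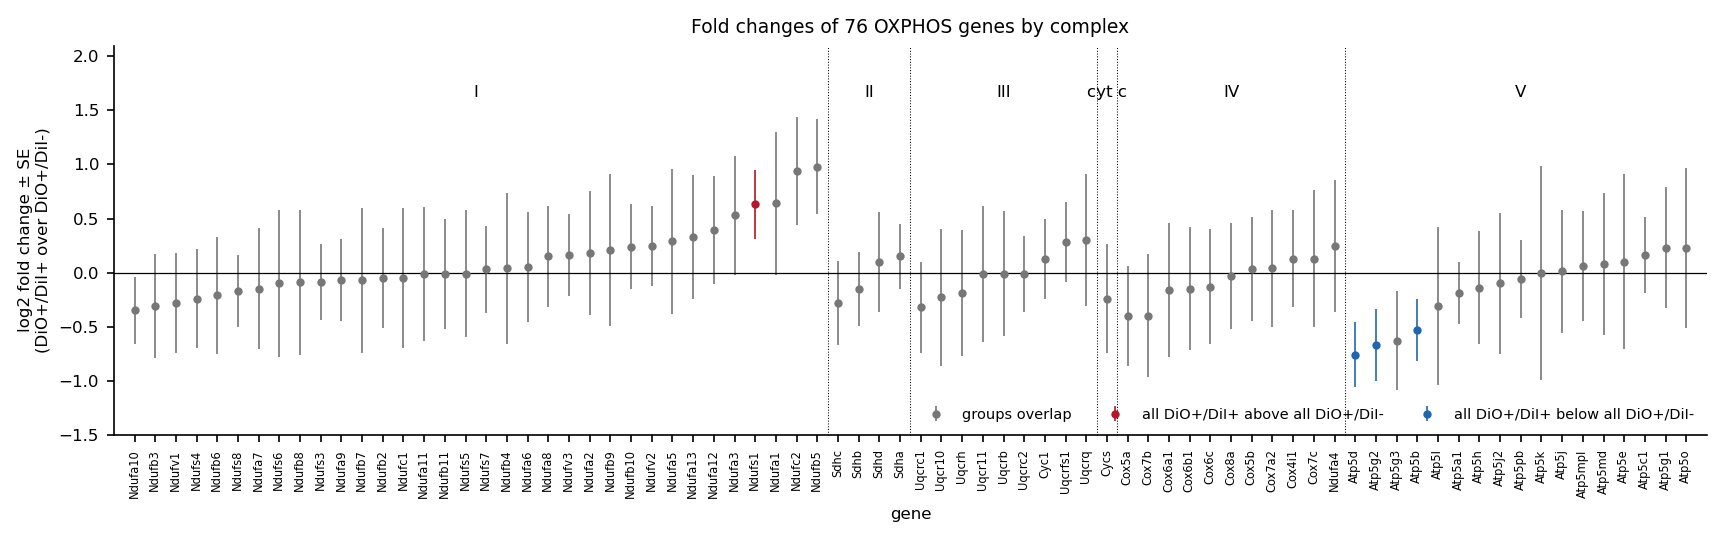
Log2 fold change (DiO+/DiI+ over DiO+/DiI-) of 76 of the 77 tested members with its standard error, by complex and in rising order. Most intervals include 0, and the 4 coloured genes are those whose groups did not overlap.

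In the F1 head of the ATP synthase, where ATP is made, the catalytic β subunit gene *Atp5b* (chr10:128083273-128090391, + strand) had 841, 757 and 740.2 CPM in DiO+/DiI+ pools, against 1265, 1087 and 1034 CPM in DiO+/DiI- pools. All DiO+/DiI+ pools lay below all DiO+/DiI- pools, and the spread within a group was small. Its log2 fold change was -0.53 ± 0.29 (SE, edgeR adjusted p = 0.885). The gene of the central stalk subunit δ, *Atp5d* (chr10:80138632-80145818, + strand), had 490.3, 628 and 524 CPM in DiO+/DiI+ pools, against 855, 1133 and 793 CPM in DiO+/DiI- pools. Again the groups did not overlap, and the log2 fold change was -0.76 ± 0.30 (SE, edgeR unadjusted p = 0.0276, adjusted p = 0.743). *Atp5d* shares 68 exon bases with *Cbarp* on the opposite strand, and the strand setting of the counting is not given. The log2 fold change of both genes stayed below 0 in all 17 alternative settings, between -0.61 and -0.43 for *Atp5b* and between -0.90 and -0.58 for *Atp5d*. As the groups did not overlap, this sign was close to fixed when a library was left out, and it adds no support.

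The other F1 subunit genes did not share this separation. *Atp5a1*, the α subunit that alternates with β in the ring of the head, had 456, 395 and 583 CPM in DiO+/DiI+ pools and 575, 514 and 544 CPM in DiO+/DiI- pools, with a DiO+/DiI+ pool as the highest library. *Atp5c1*, the rotating γ subunit, had 525, 291 and 231 CPM in DiO+/DiI+ pools and 347, 294 and 294 CPM in DiO+/DiI- pools. *Atp5e*, the smallest F1 subunit, had 27.5, 71.4 and 7.77 CPM in DiO+/DiI+ pools and 13.4, 73.2 and 12.9 CPM in DiO+/DiI- pools, a 9.18-fold range within the DiO+/DiI+ and a 5.68-fold range within the DiO+/DiI- group.

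The c ring of the proton rotor is built from 1 mature protein that is encoded by *Atp5g1*, *Atp5g2* and *Atp5g3*, which differ in their import sequences. *Atp5g2* had 55.5, 57.5 and 65.3 CPM in DiO+/DiI+ pools, against 78.0, 128 and 78.5 CPM in DiO+/DiI- pools, without overlap (log2 fold change -0.67 ± 0.33 SE, edgeR adjusted p = 0.877). *Atp5g3* had 299, 406 and 136 CPM in DiO+/DiI+ pools and 353, 699 and 247 CPM in DiO+/DiI- pools, with overlapping groups (log2 fold change -0.63 ± 0.46 SE, edgeR adjusted p = 0.956). *Atp5g1* had 455, 678 and 158 CPM in DiO+/DiI+ pools and 304, 639 and 158 CPM in DiO+/DiI- pools.

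As shares of the counts of the 3 c-ring genes, *Atp5g1* took 56.2%, 59.4% and 43.9% in DiO+/DiI+ pools and 41.4%, 43.6% and 32.6% in DiO+/DiI- pools. *Atp5g3* took 36.9%, 35.6% and 37.9% in DiO+/DiI+ pools and 48.0%, 47.7% and 51.1% in DiO+/DiI- pools. Every DiO+/DiI+ pool was above every DiO+/DiI- pool for the share of *Atp5g1*, by a margin as small as 43.9% against 43.6%, and below for that of *Atp5g3*. These shares were formed after the levels were seen and are given without a test. *Atp5g2* shares of 6.85%, 5.04% and 18.2% in DiO+/DiI+ pools and 10.6%, 8.73% and 16.3% in DiO+/DiI- pools overlapped.

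**Figure D3:**
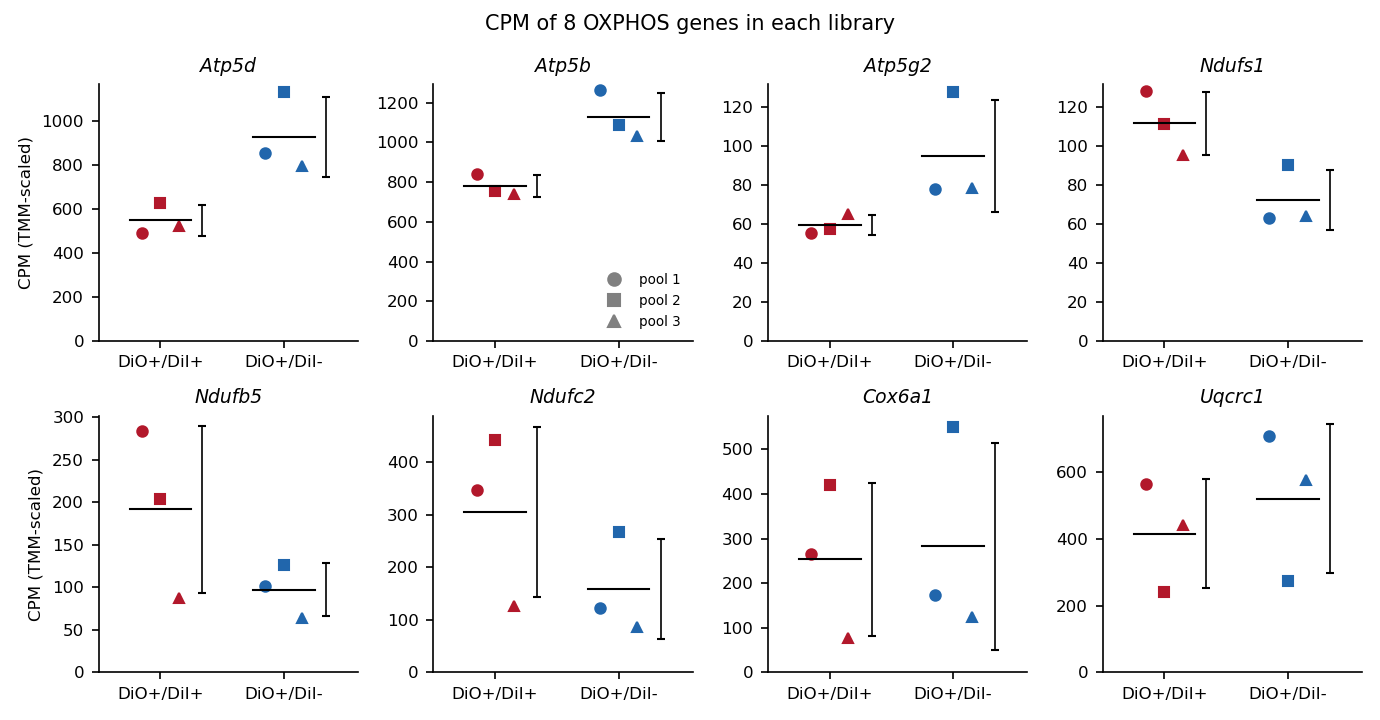
TMM-scaled CPM of 8 members in each library (points, with the marker shape giving the pool number), group means (horizontal lines) and SD (bars at the right of each group, n = 3). The top row shows the 4 genes whose groups did not overlap; in the bottom row *Ndufb5*, *Ndufc2* and *Cox6a1* were lowest in pool 3 of both groups, and *Uqcrc1* was lowest in pool 2 of both groups.

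In complex I, *Ndufs1* (chr1:63143596-63176833, - strand), the largest core subunit with iron-sulphur clusters, had 128, 112 and 95.7 CPM in DiO+/DiI+ pools, against 63.0, 90.2 and 64.3 CPM in DiO+/DiI- pools. Every DiO+/DiI+ pool was higher, and the log2 fold change was 0.63 ± 0.32 (SE, edgeR adjusted p = 0.881), between 0.51 and 0.82 in the 17 alternative settings. *Ndufs1* shares 489 exon bases with the antisense RNA gene *Ino80dos*, which had 276 counts over the 6 libraries beside 2719 of *Ndufs1*. Of the 7 core subunit genes 4 were above and 3 below 0, with a median log2 fold change of 0.03.

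Other core genes of complex I overlapped between the groups. *Ndufv1*, which binds NADH, had 189.9, 64.4 and 167 CPM in DiO+/DiI+ pools and 229, 84.5 and 197 CPM in DiO+/DiI- pools. It was lowest in the pools numbered 2 of both groups. *Ndufs7*, which carries the last iron-sulphur cluster, had 512, 388 and 171 CPM in DiO+/DiI+ pools and 327, 460.0 and 266 CPM in DiO+/DiI- pools, lowest in the pools numbered 3.

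Among the 28 supernumerary genes of complex I, 14 were above and 14 below 0. *Ndufb5*, a subunit of the membrane arm, had 284, 204 and 87.6 CPM in DiO+/DiI+ pools and 102, 126 and 64.3 CPM in DiO+/DiI- pools. Pools 1 and 2 of the DiO+/DiI+ group were above all DiO+/DiI- pools and pool 3 was not (log2 fold change 0.98 ± 0.44 SE, edgeR unadjusted p = 0.046, adjusted p = 0.845). It shares 616 exon bases with *Mrpl47* on the opposite strand. *Ndufc2*, another membrane arm subunit, had 347, 443 and 127 CPM in DiO+/DiI+ pools and 123, 266 and 87.1 CPM in DiO+/DiI- pools (log2 fold change 0.94 ± 0.50 SE, edgeR adjusted p = 0.885). *Ndufa10*, also of the membrane arm, had 446, 323 and 351 CPM in DiO+/DiI+ pools and 609, 425 and 387 CPM in DiO+/DiI- pools (log2 fold change -0.35 ± 0.31 SE, edgeR adjusted p = 0.970).

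Complex II, succinate dehydrogenase, also works in the tricarboxylic acid cycle. Its flavoprotein gene *Sdha* had 210.4, 145 and 185 CPM in DiO+/DiI+ pools and 174, 139 and 173 CPM in DiO+/DiI- pools (log2 fold change 0.15, edgeR adjusted p = 0.987). The iron-sulphur subunit gene *Sdhb* averaged 240.4 ± 105 CPM in DiO+/DiI+ and 267 ± 18.9 CPM in DiO+/DiI- pools (SD, n = 3 each). The membrane anchors *Sdhc* and *Sdhd* averaged 55.9 ± 14.2 and 139 ± 99.1 CPM in DiO+/DiI+ pools, and 67.7 ± 25.8 and 130.0 ± 35.2 CPM in DiO+/DiI- pools. The groups overlapped for all 4 genes.

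In complex III, *Uqcrc1*, a large core protein on the matrix side, had 565, 240.1 and 440.4 CPM in DiO+/DiI+ pools and 708, 274 and 576 CPM in DiO+/DiI- pools (log2 fold change -0.32, edgeR adjusted p = 0.978). *Cyc1*, cytochrome c1, had 407, 218 and 357 CPM in DiO+/DiI+ pools and 423, 198 and 276 CPM in DiO+/DiI- pools. Both were lowest in the pools numbered 2, as was the Rieske protein gene *Uqcrfs1*, with 392, 164 and 173 CPM in DiO+/DiI+ pools and 216, 183 and 201 CPM in DiO+/DiI- pools. Its log2 fold change of 0.28 (edgeR adjusted p = 0.978) turned to -0.25 without DiO+/DiI+ pool 1.

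The small subunits of complex III ran the other way. *Uqcrq*, a small membrane subunit, had 153, 162 and 34.3 CPM in DiO+/DiI+ pools and 54.4, 179.7 and 49.7 CPM in DiO+/DiI- pools. All 5 tested small subunit genes (*Uqcrb*, *Uqcrh*, *Uqcrq*, *Uqcr10* and *Uqcr11*) were highest in pool 2 and lowest in pool 3 of both groups. Their counts summed to 0.311, 0.829 and 0.136 of those of the 4 core genes in DiO+/DiI+ pools, and to 0.160, 1.08 and 0.167 in DiO+/DiI- pools. *Cycs*, the mobile carrier between complexes III and IV, had 291, 269.7 and 110.1 CPM in DiO+/DiI+ pools and 160.2, 487 and 147 CPM in DiO+/DiI- pools. Its log2 fold change of -0.24 (edgeR adjusted p = 0.987) became 0.55 without DiO+/DiI- pool 2 and 0.08 without DiO+/DiI+ pool 3.

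The 11 tested genes of complex IV were all highest in pool 2 of the DiO+/DiI- group and all lowest in pool 3 of the DiO+/DiI+ group. *Cox5a*, a matrix-side subunit, had 402, 481 and 205 CPM in DiO+/DiI+ pools and 346, 833 and 259 CPM in DiO+/DiI- pools (log2 fold change -0.40, edgeR adjusted p = 0.976), and its log2 fold change was 0.27 without DiO+/DiI- pool 2. It shares 269 exon bases with the antisense transcript *Gm26631*, whose 9702 counts over the 6 libraries stand beside 11173 of *Cox5a*. *Cox6a1*, a regulatory subunit at the dimer interface, had 264, 419 and 76.8 CPM in DiO+/DiI+ pools and 174, 549.5 and 123 CPM in DiO+/DiI- pools. The levels within a group thus spanned 5.46-fold in DiO+/DiI+ and 4.45-fold in DiO+/DiI- pools.

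The pattern ran with the length of the coding sequence. At a boundary of 600 coding bases, set after the values were seen, 56 tested members were short (156 to 567 bases) and 21 were long (636 to 2181 bases). Relative to each gene's mean over the 6 libraries, the median log2 deviation of short members was 0.38, 0.79 and -1.03 in DiO+/DiI+ pools 1, 2 and 3, and -0.47, 1.13 and -0.76 in DiO+/DiI- pools 1, 2 and 3. For long members it was 0.44, -0.30 and -0.29 in DiO+/DiI+ pools and 0.23, 0.02 and -0.12 in DiO+/DiI- pools. Short members were thus high in both pools numbered 2 and in DiO+/DiI+ pool 1, and low in the remaining 3 libraries.

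**Figure D4:**
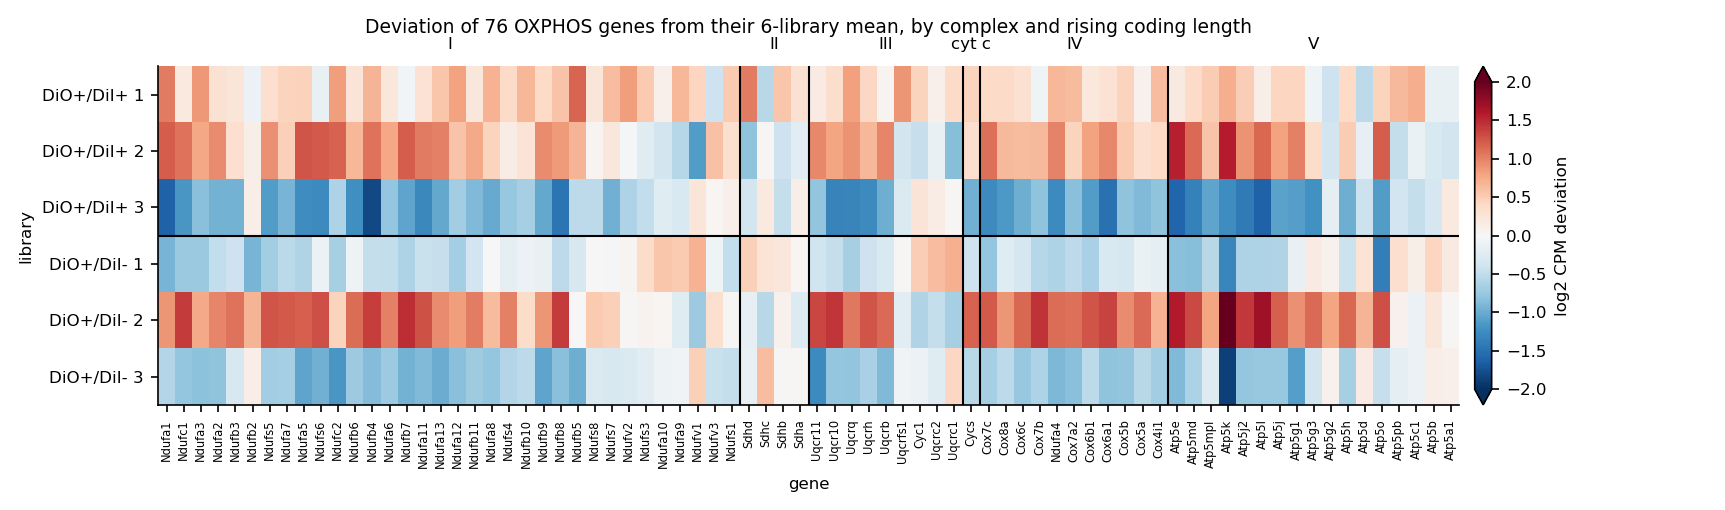
Log2 CPM deviation of 76 of the 77 tested members (columns) from its mean over the 6 libraries (rows), grouped by complex and ordered by rising coding length within a complex. Red is above and blue below the mean; most short genes at the left of complexes I, III and V are red in both pools numbered 2 and blue in both pools numbered 3, and complex II lacks the pattern.

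Of the 56 short members, 43 (76.8%) were highest in pool 2 of both groups and 44 (78.6%) lowest in pool 3 of both groups. The same held for 26.7% and 32.4% of 1553 tested genes of that coding length, and for 14.0% and 13.3% of all genes tested. Of the 21 long members, 14 were highest in pool 1 of both groups and 9 lowest in pool 2 of both groups. Within a group the highest library exceeded the lowest by a median of 3.62-fold (DiO+/DiI+) and 3.73-fold (DiO+/DiI-) for short members and by 2.06-fold and 1.57-fold for long ones. All genes tested had medians of 2.57-fold in DiO+/DiI+ and 1.87-fold in DiO+/DiI- pools.

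Across the 77 members, which share their libraries and their depth, Spearman's rho between the deviation and the coding length was 0.06, -0.68 and 0.71 in DiO+/DiI+ pools 1 to 3 and 0.73, -0.74 and 0.55 in DiO+/DiI- pools 1 to 3. Over all 11422 tested genes with a coding length it lay between -0.11 and 0.15 in the 6 libraries. With the annotated transcript length in place of the coding length, rho over the members was 0.07, -0.64 and 0.67 in DiO+/DiI+ pools and 0.65, -0.65 and 0.50 in DiO+/DiI- pools.

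**Figure D5:**
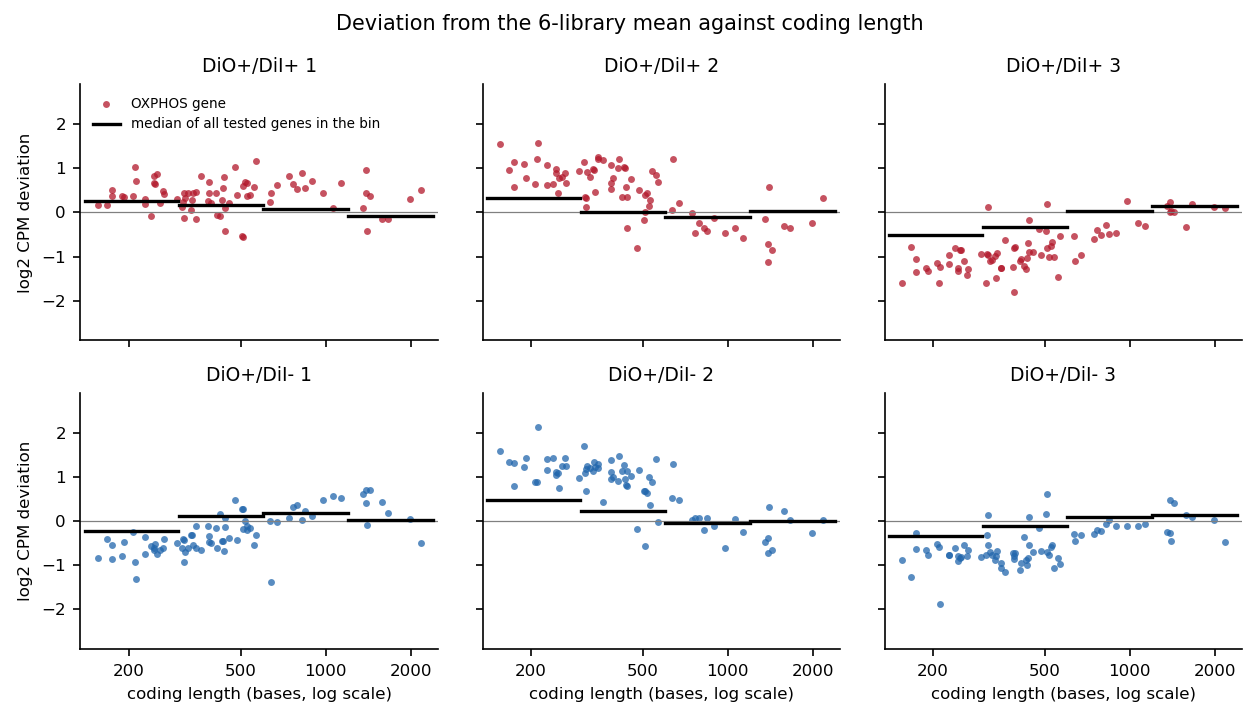
Log2 CPM deviation of each tested member from its 6-library mean against its coding length (log scale), with a panel for each library. Black lines give the median of all tested genes in 4 bins of coding length; in both pools numbered 2 most members under 600 bases lie above that line, and in both pools numbered 3 most lie below it.

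Other genes of short coding length deviated in the same direction in the pools numbered 2 and 3, with smaller medians, and chiefly those of up to 300 bases. For coding lengths up to 300 bases, the median deviations of 20 members were 0.90 in pool 2 and -1.20 in pool 3 of the DiO+/DiI+ group, while those of 249 tested genes in the same bin, members included, were 0.33 and -0.52. In the DiO+/DiI- group the 20 members had 1.24 in pool 2 and -0.77 in pool 3, and the 249 genes had 0.47 and -0.33. Above 1200 bases, 9 members had -0.30 and 0.10 in DiO+/DiI+ pools 2 and 3, and 6644 genes had 0.03 and 0.14. These differences between members and other genes are described without a test.

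A few members did not follow their length. *Sdhc* and *Sdhd*, with 507 and 477 coding bases, were the only short members that were not highest in pool 2 of the DiO+/DiI- group. *Atp5g2* and *Ndufb2* were highest there, but were highest in pool 3 and lowest in pool 1 of the DiO+/DiI+ group. *Ndufb2*, with 891 counts over the 6 libraries, shares exon bases on the opposite strand with *Gm16272* (156 bases, 1568 counts) and *Braf* (146 bases, 1324 counts). Its order may therefore not be its own. *Atp5o*, a peripheral stalk subunit with 639 coding bases, was highest in pool 2 of both groups, with 24.7, 42.5 and 8.17 CPM in DiO+/DiI+ pools and 6.71, 44.8 and 13.1 CPM in DiO+/DiI- pools. *Ndufv3*, an accessory subunit with 1404 coding bases, was the other long member with this order.

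The ratio of summed transcript counts between classes of subunits within a complex changed with the library in the same way. These ratios rest on the same counts as the pattern above and do not measure the balance of the proteins. Supernumerary genes of complex I had 1.98, 3.59 and 1.72 times the counts of core genes in DiO+/DiI+ pools, and 1.76, 3.43 and 1.65 times in DiO+/DiI- pools. For complex V, the stalk and membrane subunits had 0.872, 0.925 and 0.393 times the counts of the F1 head in DiO+/DiI+ pools and 0.420, 0.897 and 0.382 times in DiO+/DiI- pools. Short members together had 1.39, 2.68 and 0.860 times the counts of long members in DiO+/DiI+ pools, against 0.926, 2.83 and 0.946 times in DiO+/DiI- pools. The groups overlapped in each of these ratios.

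Several values moved with the pools numbered 2. These had the lowest total counts of their groups and the highest share of mitochondrially encoded mRNA. All 4 muscle markers were detected there, with a sum of 72.7 CPM in DiO+/DiI+ pool 2 and 65.4 CPM in DiO+/DiI- pool 2, against 0.192 to 10.6 CPM in the other 4 libraries. *mt-Co3* had 24.0, 683 and 27.6 CPM in DiO+/DiI+ pools and 50.2, 1284 and 30.8 CPM in DiO+/DiI- pools. TMM factors were lowest in the pools numbered 2 (0.917 in DiO+/DiI+, 0.802 in DiO+/DiI-) and highest in those numbered 3 (1.15 and 1.13). With TMM scaling the members summed to 22718.5 in place of 18148.5 CPM in DiO+/DiI- pool 2, and to 9564 in place of 10875 CPM in DiO+/DiI+ pool 3. The part of any of these values in the levels of the short members was not tested. Count ratios within a library do not depend on the factors. The labels mention 3 batches of libraries without assigning libraries to them, so no within-batch value could be formed.

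Promoters of 64 of the 77 tested members were matched by symbol to RefSeq windows on GRCm38.p6, each with 250 bases before and 50 after the start. Nuclear respiratory genes are known targets of NRF1, of the ETS factor GABPA, of oestrogen-related receptors (ERR) and of YY1. The core letters searched on both strands were GCGCATGC for NRF1, CCGGAAG for ETS factors, AAGGTCA for ERR and AAGATGGCG for YY1. NRF1 letters were found at 11 of the 64 genes (17.2%, against 3.05% of 27025 genes), ETS letters at 17 (26.6%, against 9.93%), ERR letters at 8 (12.5%, against 5.38%) and YY1 letters at 7 (10.9%, against 1.64%). At least 1 of the 4 was present at 27 of 48 short and 6 of 16 long members. The 27025 genes were not restricted to genes expressed in these cells, and no share over the tested genes was formed. The excess is therefore not shown to be particular to respiratory genes. A match describes letters and not a bound site.

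The 250 bases before the start are shown for 3 members that mark the patterns above, with matched letters in capitals. *Cox6a1* (chr5:115348959-115349208, - strand) stands for the short subunits that moved with the pools, and has NRF1 letters that overlap on both strands and ETS letters near the start. *Atp5g2* (chr15:102671048-102671297, - strand) is a short member that separated the groups and did not follow the pools in the DiO+/DiI+ group, and has the NRF1 letters too. *Atp5b* (chr10:128083057-128083306, + strand) separated the groups and has none of the 4 in this window.
Cox6a1: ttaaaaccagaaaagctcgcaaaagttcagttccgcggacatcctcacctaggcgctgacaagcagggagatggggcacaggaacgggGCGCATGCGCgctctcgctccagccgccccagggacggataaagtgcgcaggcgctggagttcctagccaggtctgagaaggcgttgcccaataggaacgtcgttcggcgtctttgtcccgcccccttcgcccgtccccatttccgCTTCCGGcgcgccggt
Atp5g2: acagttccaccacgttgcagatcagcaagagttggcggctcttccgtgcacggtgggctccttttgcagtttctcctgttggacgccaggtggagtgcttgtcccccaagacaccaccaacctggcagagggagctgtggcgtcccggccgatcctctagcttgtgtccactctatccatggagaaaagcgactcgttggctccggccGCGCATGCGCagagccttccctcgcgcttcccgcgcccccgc
Atp5b: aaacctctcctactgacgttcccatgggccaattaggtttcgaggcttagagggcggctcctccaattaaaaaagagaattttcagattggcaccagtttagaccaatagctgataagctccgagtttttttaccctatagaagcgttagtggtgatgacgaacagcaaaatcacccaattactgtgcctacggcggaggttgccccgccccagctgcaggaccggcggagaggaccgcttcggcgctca

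Other mitochondrial genes from lists chosen alongside the members were read from the same fit, and none of them passed the test. Of 45 tested assembly factors 27 were above 0 (median log2 fold change 0.09), and the complex I assembly factor *Ndufaf1* had 20.1, 15.4 and 19.3 CPM in DiO+/DiI+ pools against 55.6, 26.4 and 30.1 CPM in DiO+/DiI- pools, without overlap. Of 17 genes of the tricarboxylic acid cycle and pyruvate dehydrogenase 14 were below 0 (median -0.16), among them *Pdha1*, the E1 subunit of pyruvate dehydrogenase, with 118, 116 and 81.9 CPM in DiO+/DiI+ pools against 138, 164 and 132 CPM in DiO+/DiI- pools. Of 22 import and carrier genes 9 were above and 13 below 0 (median -0.07). The chaperonin gene *Hspd1* had 252, 151 and 201 CPM in DiO+/DiI+ pools against 311, 294 and 311 CPM in DiO+/DiI- pools. All genes tested had a median of 0.02.

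Of 19 genes for mitochondrial dynamics and transport 14 were above 0 (median log2 fold change 0.11). *Snph*, the syntaphilin gene whose product anchors mitochondria to axonal microtubules, had 148, 195 and 244 CPM in DiO+/DiI+ pools against 139, 103 and 114 CPM in DiO+/DiI- pools, without overlap (edgeR unadjusted p = 0.043, adjusted p = 0.830). Of 15 biogenesis regulators 8 were above and 7 below 0 (median 0.03). *Gabpb1*, a partner of GABPA, had 3.70, 2.56 and 2.55 CPM in DiO+/DiI+ pools against 7.44, 7.35 and 23.0 CPM in DiO+/DiI- pools (edgeR unadjusted p = 0.0257, adjusted p = 0.742). *Ssbp1*, which binds single-stranded mitochondrial DNA, had 72.1, 29.6 and 34.8 CPM in DiO+/DiI+ pools and 19.8, 14.4 and 29.6 CPM in DiO+/DiI- pools (edgeR unadjusted p = 0.0398, adjusted p = 0.803), and DiO+/DiI+ pool 2 and DiO+/DiI- pool 3 differed only beyond the digits given. *Ppargc1a*, the coactivator PGC-1α, had 23.4, 23.8 and 14.7 CPM in DiO+/DiI+ pools and 17.9, 8.02 and 4.64 CPM in DiO+/DiI- pools, with overlapping groups.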

How the data were processed

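Poly(A) RNA of 6 pools was amplified with a SMART-Seq HT kit, per the labels' protocols, which name no molecular identifiers. The deposited values are raw counts of reads per gene, made by the authors, and the submitters' processing notes name HISAT2, HTSeq, FastQC and build mm10. The annotation, the strand setting, versions and the handling of multi-mapped reads were not given in the sources used here, so overlapping genes (29 members share exon bases with another gene) and near-identical copies are uncertain. Coordinates and lengths come from GENCODE M21 on GRCm38, which held 53772 of the 53858 identifiers, and promoters from RefSeq on GRCm38.p6.

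In R 4.3.3, genes kept by filterByExpr (12954, with 99.2% of counts) were scaled with TMM factors and compared with the two-sided robust quasi-likelihood test of edgeR 4.0.16 at a threshold of 0.05 after Benjamini-Hochberg adjustment over all genes. CPM of single genes are TMM-scaled, sums and shares use total counts, and deviations use log2 CPM with a prior count of 2. Replicates are pools of a dye group, and no library was left out. Coding length is the longest coding sequence among principal transcripts, transcript length the shortest principal transcript. The fits were also run on simulated counts, in which libraries differed only by depth, group and random variation. That simulation held no pattern by pool number or coding length, so it cannot show how the fits behave under the pattern described here.

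Alternatives were other scalings, no filter and 10 counts in 5 libraries, DESeq2 1.42.0, limma 3.58.1 voom, a replicate block and leaving out each library. Leaving out both pools numbered 2, a coding length offset (loess, span 0.5) and both length offset and block were added after seeing the data. Members and lists were chosen with earlier results of these data known. Named were all genes of complexes with up to 4 members, otherwise the 3 of smallest p and the 2 of highest mean CPM, fixed core subunits and isoform sets, and up to 3 genes of smallest p per other list. *Atp5c1*, *Atp5e*, *Atp5o*, *Ndufb2*, *Ndufb9*, *Ndufv3*, *Uqcrb*, *Uqcrh*, *Uqcr10*, *Uqcr11*, *mt-Co3*, *mt-Cytb* and the astrocyte markers were named after their values were seen. The values of 1 member are not reported here by gene, and it is counted in all totals.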

Additional observations from a re-analysis of the deposited data

How the results depend on the processing

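In each of the 17 alternatives 0 members passed an adjusted p of 0.05, and the cause of the shifts below was not tested. At an unadjusted p under 0.05 there were 2 members, against 1 with upper quartile factors, 4 with limma voom, 1 without both pools numbered 2, 4 with the block and the length offset, and 0 to 6 when a library was left out. The 35 members above and 42 below 0 became 56 and 21 with voom, 62 and 15 without both pools numbered 2, 56 and 21 with the length offset, and 55 and 22 with block and offset. Leaving out a library gave 13 to 63 above and 14 to 64 below 0. Groups did not overlap for 4 members, for 10 without both pools numbered 2 and for 4 to 12 without a library, where fewer samples overlap less readily. With all 6 libraries, 5.86% of all genes were higher and 7.07% lower without overlap. For the alternatives, the shares of all genes without overlap or at an unadjusted p under 0.05 were not formed. The counts of members there have no background beside them. The log2 fold change of *Cox5a* (-0.40) turned to 0.02 with voom and ran from -0.72 to 0.27 without a library, *Uqcrfs1* (0.28) to -0.05 with voom and ran from -0.25 to 0.48 without a library, and *Sdha* (0.15) to 0.00 with voom. *Cycs* (-0.24) turned to 0.16 with voom, 0.37 without both pools numbered 2, 0.00 with block and offset, and ran from -0.55 to 0.55 without a library. *Atp5d*, *Atp5b*, *Atp5g2*, *Ndufs1*, *Ndufb5* and *Ndufc2* kept their direction throughout. For the first 4 of these, whose groups did not overlap, the direction was close to fixed when a library was left out. Pools with the same number deviated together by a correlation of 0.07, 0.23 and 0.20 over all genes, and pools of unlike number by -0.19 to 0.02. The labels state no pairing, so the numbers were not taken as pairs in the main fit. Its standard errors and p-values therefore include any variation shared by number. Over all genes each library correlated best with its own number, a hint from the data and not from the design. Over the 77 members the same pairs had 0.20, 0.92 and 0.82. There DiO+/DiI- pool 1 correlated better with DiO+/DiI+ pool 3 (0.73) than with the pool of its own number. Read by number, complex V sums were lower in each DiO+/DiI+ pool (5071, 4799 and 3713 CPM) than in its DiO+/DiI- counterpart (5348, 5870 and 4688 CPM). These sums include the abundant genes *Atp5b* and *Atp5d*, and 7 of the 17 tested complex V genes had a log2 fold change above 0. *Atp5g3*, *Uqcrc1*, *Ndufa10* and *Ndufv1* were also lower at each number. *Ndufb5*, *Ndufc2*, *Ndufb9*, *Sdha* and the complex V gene *Atp5g1* were higher at each number, *Atp5g1* at number 3 by only 157.8 against 157.6 CPM. These are examples and not a full list. The share of members or of all genes with the same direction at every number was not formed. With the number as a replicate block, 6 members had an unadjusted p under 0.05, 42 were above and 35 below 0, and 23 of 12954 genes but 0 members were called. Depth limits chiefly the members that were not tested, since 3 counts correspond to up to 1.00 CPM in a library, a limit that covers counting error only.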
